A study of Mus musculus with 10 samples.

Results

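The genes described here are 8 genes of the retinal pigment epithelium and its melanin: Mitf, Tyr, Tyrp1, Dct, Pmel, Mlana, Rpe65 and Best1. They were taken by name from the 21631 protein-coding genes on chromosomes 1 to 19 and X, and all 8 were found in the annotation. Each was read over its annotated gene body plus 20 kb either side (build mm10) in the 8 lists of called peaks from neonatal mouse retina, strain C57BL/6. Such a list says where a peak was called and how wide it was. The measures are therefore the presence of a peak and the bases lying under peaks, called covered bases below.

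Tissue with a conditional knockout (cKO) of Casz1, which encodes a zinc finger transcription factor, was set against tissue labelled wild type, called control. For ATAC-seq, which marks open chromatin with a transposase, retina of postnatal day 2 was grown as explants for 2 days after transfection of a plasmid with GFP and Cre (2 cKO libraries) or with GFP alone (2 control libraries). From each culture 50000 viable GFP-positive cells were sorted. ChIP-seq for H3K27ac, found at active regulatory DNA, and for H3K27me3, laid down by Polycomb complexes, used dissected retina at postnatal day 0, with 1 cKO and 1 control library per mark. The cKO tissue for ChIP was peripheral retina picked by fluorescence, so position in the retina and genotype cannot be told apart there. ATAC and ChIP samples also differed in age, culture and sorting. Peaks of both assays at one place were therefore not shown to lie in the same cells. No source used here gives the Cre line behind the ChIP tissue, the floxed part of Casz1 or the number of animals.

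The pigment epithelium is a sheet of melanin-bearing cells behind the photoreceptors. It arises from the outer layer of the optic cup, while the neural retina arises from the inner layer and makes no melanin. MITF, a transcription factor of the bHLH leucine zipper family, drives the melanin genes in this epithelium and in melanocytes, and the homeobox factor OTX2 acts with it in the epithelium. TYR, TYRP1 and DCT are the enzymes that turn tyrosine into melanin. PMEL forms the fibrils on which melanin is laid down, and MLANA is a melanosome protein that acts with PMEL. RPE65 is the isomerase that remakes visual chromophore for the photoreceptors, and BEST1 is a chloride channel of the epithelium's basal membrane.

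The promoters of the 3 melanin enzymes are shown first, because they share the letters that MITF reads and yet differ in their chromatin in these lists. The sequences are the 250 bases before the listed start, read in the direction of the gene, from RefSeq (GRCm38.p6, the assembly called mm10): chr7:87493513-87493762 on the minus strand for Tyr, chr4:80833963-80834212 on the plus strand for Tyrp1 and chr14:118052247-118052496 on the minus strand for Dct. Capitals mark GTCATGTGCT, the longest run of letters that the 3 sequences have in common. It holds CATGTG, the core of the M-box that MITF binds.
Tyr: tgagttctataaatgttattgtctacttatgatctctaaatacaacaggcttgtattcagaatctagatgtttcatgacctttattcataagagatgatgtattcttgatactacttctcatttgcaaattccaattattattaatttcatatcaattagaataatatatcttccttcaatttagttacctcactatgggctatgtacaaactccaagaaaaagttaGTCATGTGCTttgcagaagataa
Tyrp1: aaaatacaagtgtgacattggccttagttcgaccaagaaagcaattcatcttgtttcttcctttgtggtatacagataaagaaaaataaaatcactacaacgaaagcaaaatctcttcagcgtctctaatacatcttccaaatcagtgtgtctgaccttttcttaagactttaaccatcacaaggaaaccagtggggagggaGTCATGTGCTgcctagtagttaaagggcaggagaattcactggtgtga
Dct: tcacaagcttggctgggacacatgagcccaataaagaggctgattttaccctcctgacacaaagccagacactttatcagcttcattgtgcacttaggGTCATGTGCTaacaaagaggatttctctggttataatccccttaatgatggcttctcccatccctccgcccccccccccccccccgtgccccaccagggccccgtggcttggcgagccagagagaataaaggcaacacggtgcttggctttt

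The run GTCATGTGCT, searched on both strands, was found in 22 of the 21045 listed promoters of this length (0.105%), and 3 of those 22 are the promoters above. It was chosen by comparing these 3 sequences, so its rarity is a description. Its first base lies 23 bp before the Tyr start, 48 bp before that of Tyrp1 and 152 bp before that of Dct. The shorter core CATGTG, also contained in the run, was found in 10.1% of all listed promoters and in those of Tyr, Tyrp1, Dct and Rpe65. Dct holds it a second time, on the opposite strand. The related E-box CACGTG, searched in the same way and with no overlap with CATGTG, was in none of the 8 promoters listed for these genes and in 6.70% of all.

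The Rpe65 promoter is shown too, because none of the 8 lists had a peak near it. Rpe65 starts on the plus strand of chromosome 3, and its 250 bases are chr3:159598931-159599180. Capitals mark CACATG, which is CATGTG read on the other strand, and GGATTA, which is TAATCC, the core of the site read by OTX2, on the other strand.
Rpe65: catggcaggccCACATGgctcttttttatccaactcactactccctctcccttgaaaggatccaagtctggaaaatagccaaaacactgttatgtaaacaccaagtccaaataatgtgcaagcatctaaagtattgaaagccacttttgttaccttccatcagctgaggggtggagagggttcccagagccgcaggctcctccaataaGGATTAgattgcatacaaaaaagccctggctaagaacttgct
The OTX core TAATCC was found on either strand in 5.77% of all promoters, and in those of Rpe65, Dct, Best1 and the middle of the 3 Mitf starts. A match describes the letters only. RefSeq promoters were matched for 6 of the 8 genes, with 3 starts for Mitf. Pmel and Mlana had no entry.

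Across the group, an ATAC peak lay in the window in all 4 lists at 7 of the 8 genes, beside 77.3% of all protein-coding genes, and acetylated chromatin was sparse. Median coverage of the gene windows by H3K27ac was 0.524% in cKO and 1.09% in control for the 8 genes. Over all protein-coding genes the medians were 2.85% in cKO and 2.98% in control. The 14 neural retina marker genes, such as Pax6, had medians of 21.6% in cKO and 23.4% in control. H3K27ac peaks lay in the windows of 5 of the 8 genes in cKO and of 6 in control. Over all genes, 78.2% had one in cKO and 78.0% in control. H3K27me3 peaks lay at 4 genes in cKO and 5 in control, beside 62.8% of all genes in cKO and 63.1% in control. Shares of a window are per length, but windows ran from 50.9 kb (Mlana) to 254 kb (Mitf) with the same 20 kb flanks. The flanks thus made up more of a short gene's window, and shares are not fully comparable between genes. In bases, the H3K27ac medians of the 8 genes were 754.5 bp in cKO and 1259.5 bp in control. Over all protein-coding genes they were 2183 bp in cKO and 2289 bp in control. In bulk tissue, few cells with a strong peak and many cells with a weak one cannot be told apart.

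The ATAC lists differed greatly in length, and this sets what can be read from them. They held 93767 and 60824 peaks in cKO replicates 1 and 2, against 40435 and 110741 in control replicates 1 and 2. The H3K27ac lists covered 51.6 Mb in cKO and 55.4 Mb in control, and the H3K27me3 lists 84.5 Mb in cKO and 87.4 Mb in control. The depth of the libraries is unknown. Whether replicates came from separate animals is not stated, beyond 2 experiments on different days, so any p-value measures the spread between these samples.

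**Figure D1:**
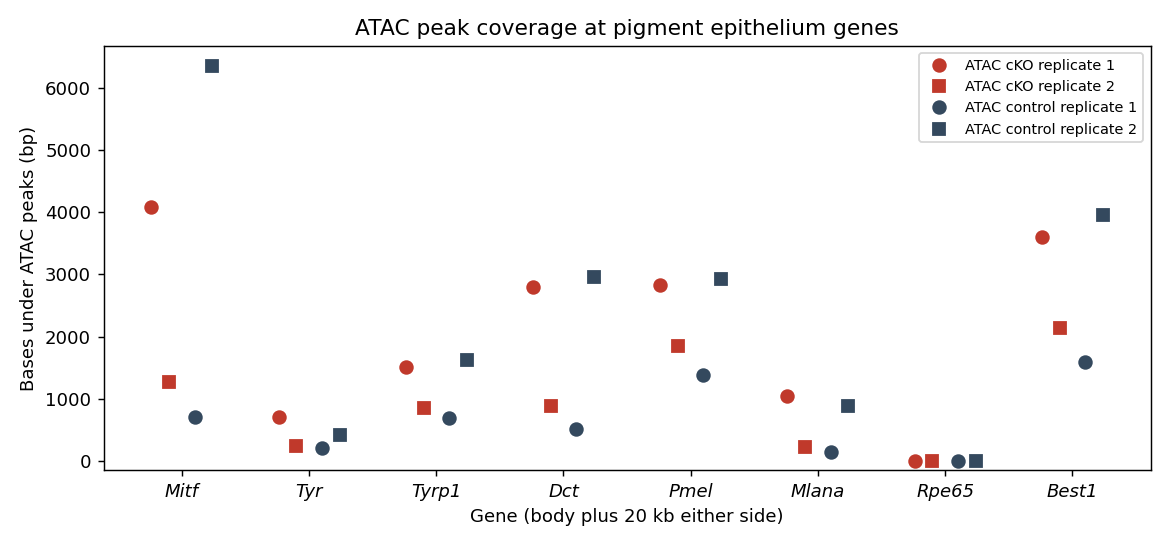
Bases under ATAC peaks in the window of each gene, one point per library, with cKO left of control. In 7 of the 8 genes the longest lists (cKO replicate 1 and control replicate 2) gave the highest pair of values, the genotypes overlapped throughout, and Rpe65 was at 0 in all 4 lists.

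Mitf, which encodes the regulator of the group, was open at its first listed start in all 4 ATAC lists, and its other listed starts were not. The gene lies on chromosome 6 from 97807002 to 98021360, on the plus strand, with listed starts at 97807058, 97929817 and 97991783. In the window, ATAC peaks covered 4081 and 1271 bp in cKO replicates 1 and 2, against 702 and 6358 bp in control replicates 1 and 2. Both control values lay outside the cKO values, one on each side, so the groups overlapped. Within 1 kb of the first start the covered bases were 965 and 322 bp in cKO and 257 and 1165 bp in control. Near the middle start, 123 kb further on, only control replicate 2 had a peak, of 149 bp. Near the most downstream start, 185 kb from the first, no list had one. In mouse and human, the melanocyte form of MITF is made from the most downstream promoter.

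Inside Mitf, 11 further ATAC regions were called in at least 1 list (regions merged where peaks overlapped by at least 1 bp). Of all 12 Mitf regions, 3 were called in all 4 lists, and 4 were called in control replicate 2 alone. A pair of regions was called in every list but that of control replicate 1. One of them (97981501 to 97981984) had peaks of 432 and 253 bp in the cKO lists and of 484 bp in control replicate 2. H3K27ac covered 289 bp of it in cKO and was listed at 0 there in control.

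H3K27ac at Mitf was narrow, with 984 bp covered in cKO and 1183 bp in control over a window of 254 kb. Peaks on both sides of the first start made up 569 bp in cKO and 575 bp in control. H3K27me3 covered more, with 6744 bp in cKO and 8532 bp in control. It lay in a set of short peaks around the first start and in a separate stretch inside the gene. The widest peak of that stretch ran from 97936936 to 97941540 in cKO and from 97936757 to 97941182 in control, and 4.25 kb was common to both. It stood about 130 kb from the first start (129.9 kb in cKO and 129.7 kb in control). An ATAC region within it (97937431 to 97938686) was called in the longest lists only, with 988 bp in cKO replicate 1 and 1256 bp in control replicate 2. Another region (97940918 to 97941386) was called in all 4 lists, with 360 and 124 bp in cKO and 142 and 456 bp in control. H3K27me3 covered 469 bp of that region in cKO and 265 bp in control.

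**Figure D2:**
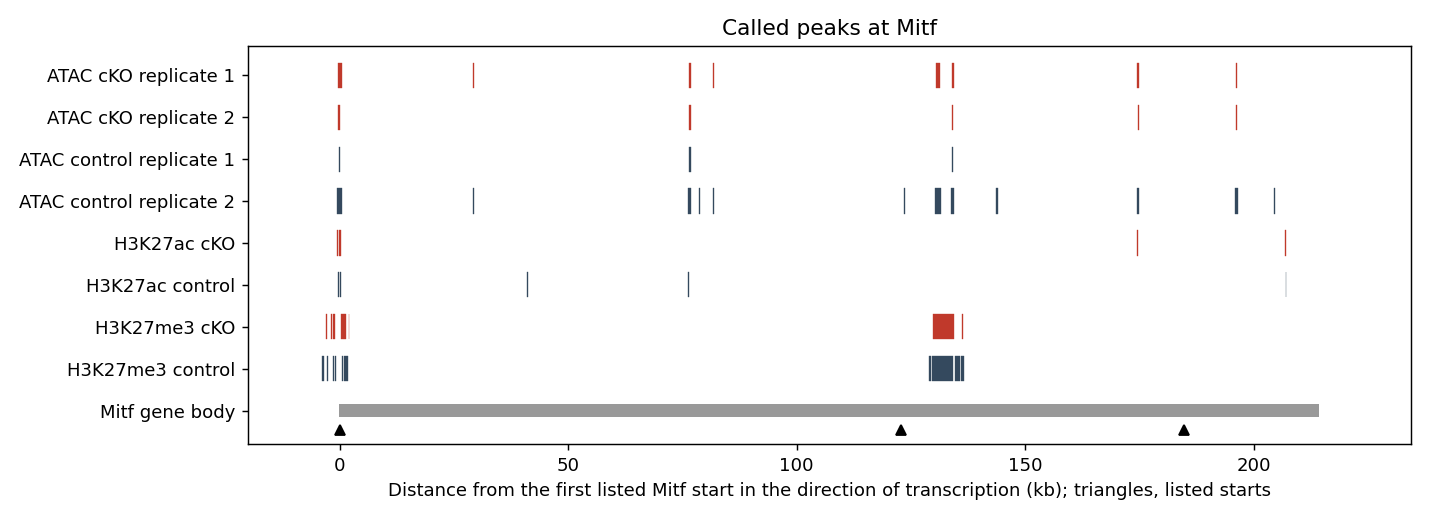
Called peaks at Mitf in the 8 lists, cKO above control for each assay, by distance in kb from the first listed start, with triangles at the 3 listed starts. Open chromatin and H3K27ac sit at the first listed start. The widest H3K27me3 peaks (4.61 kb in cKO and 4.43 kb in control) lie inside the gene. They are downstream of the middle listed start and outside 1 kb of any listed start.

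The 3 melanin enzyme genes had 3 different sets of called peaks, with ATAC read in cultured sorted cells and histone marks in dissected retina. Tyr, the gene of the rate-limiting enzyme, lies on chromosome 7 from 87424771 to 87493512. No list of any assay had a peak within 1 kb of its start. ATAC peaks in its window covered 710 and 245 bp in cKO, against 203 and 420 bp in control. In all 4 lists this included a region 10988 bp beyond the 3′ end of the gene (87413282 to 87413783), with 446 and 245 bp in cKO and 203 and 420 bp in control. A second region, of 264 bp inside the gene, was called in cKO replicate 1 alone. H3K27ac and H3K27me3 were listed at 0 in the Tyr window in both genotypes. Of all genes, 20.7% had no H3K27ac peak in either list and 33.8% had no H3K27me3 peak.

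Tyrp1, whose product acts late in melanin synthesis in the mouse, had open and acetylated chromatin and no H3K27me3. It lies on chromosome 4 from 80834123 to 80851736. ATAC peaks covered 1517 and 851 bp of its window in cKO, against 690 and 1624 bp in control. All 3 of its ATAC regions were called in all 4 lists: one at the start and others 12.7 and 14.5 kb beyond the gene's end. The region at the start had 686 and 318 bp in cKO and 211 and 730 bp in control, and the merged region overlaps the sequence printed above. The peak of control replicate 1 misses the start base itself. H3K27ac covered 1751 bp in cKO and 1336 bp in control, a cKO-to-control ratio of 1.31. The ratio did not pass the size used here, which is 1.5-fold and at least 200 bp. The peak beside the start was 290 bp wide in cKO and 318 bp in control, and the one over the region 12.7 kb away was 451 bp in cKO and 518 bp in control. The largest part of the difference lay inside the gene, where cKO had peaks of 235, 642 and 133 bp, against 1 peak of 500 bp in control.

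Dct, the gene of dopachrome tautomerase, had an ATAC peak at its start in explant cells and a wide H3K27me3 stretch there in dissected retina. It lies on chromosome 14 from 118012790 to 118052246. The start was under an ATAC peak in each list, with 693 and 544 bp within 1 kb in cKO and 374 and 771 bp in control. All 2001 bases within 1 kb of the start were under H3K27me3 in both genotypes. The peak that covers them ran from 118040312 to 118059228 in cKO (18.9 kb) and from 118040861 to 118059691 in control (18.8 kb). The peaks had 18.4 kb in common, or 97.1% of the cKO peak and 97.5% of the control peak. Only 0.354% of cKO peaks and 0.332% of control peaks of this mark were wider. In the whole window the mark covered 29073 bp in cKO and 26913 bp in control, or 36.6% of it in cKO and 33.9% in control. These shares placed Dct at the 95.5th percentile of all genes in cKO and the 94.6th in control. The excess lay outside the gene: in the gene body alone the order turned, with 12152 bp in cKO and 13001 bp in control. The ATAC coverage of the window was 2792 and 885 bp in cKO, against 520 and 2953 bp in control.

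Among the 8 genes, only Dct passed the size for H3K27ac, with 525 bp in cKO and 1363 bp in control. The control value was 2.60 times the cKO value. A lower value of this size was found in cKO at 4.12% of the 17149 genes with the mark in either list, and a higher one at 2.16%, so that 1 of the 6 marked genes here is a small count. The same 3 places were marked in both genotypes, and each peak was narrower in cKO. Peaks of this mark were also narrower in the whole cKO list, with a median of 325 bp against 400 bp in control. A peak past the gene's 3′ end was 128 bp wide in cKO and 668 bp in control. Inside the gene, 2 peaks within 2552 bp of the start were 244 and 153 bp wide in cKO, against 457 and 238 bp in control. With 1 library per genotype there is no replicate check on this or any other difference in the histone marks. No H3K27ac peak lay within 1 kb of the Dct start in either list.

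**Figure D3:**
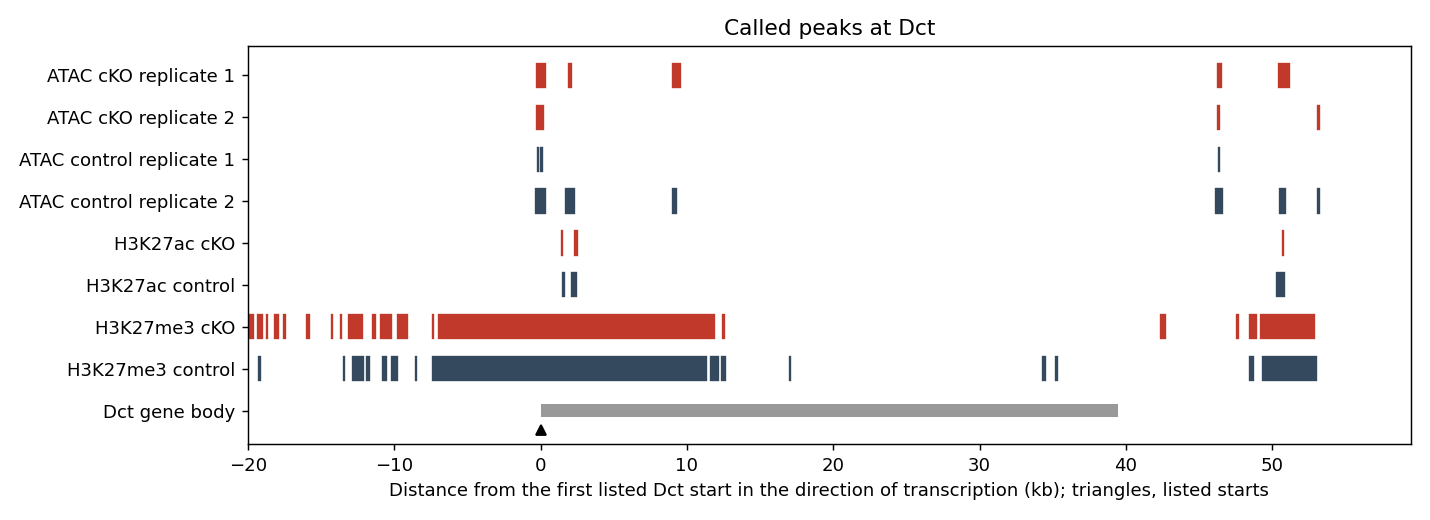
Called peaks at Dct in the 8 lists, cKO above control for each assay, by distance in kb from the listed start in the direction of transcription. The ATAC peak at 0 is present in all 4 lists. It sits inside an H3K27me3 peak of 18.9 kb in cKO and 18.8 kb in control. H3K27ac peaks are narrower in cKO, as is the median peak of the whole list (325 bp in cKO and 400 bp in control).

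The melanosome genes Pmel and Mlana differed in what surrounds them. Pmel is annotated on chromosome 10 from 128695888 to 128720238, a span that holds the whole of Cdk2, which encodes a cell cycle kinase, and overlaps Rab5b and Dgka. Its ATAC coverage was 2830 and 1842 bp in cKO, against 1389 and 2923 bp in control. Every one of its 4 ATAC regions lay within 1 kb of another protein-coding gene, and the widest pair covered the listed starts of Rab5b and Cdk2. With the bodies of other genes and 1 kb around them left out, ATAC coverage was 0 bp in all 4 lists. H3K27ac was then 107 bp in cKO and listed at 0 in control, beside 3538 bp in cKO and 3528 bp in control for the whole window. The levels read at Pmel are thus mostly those of places shared with its neighbours.

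H3K27me3 in the Pmel window was 1049 bp in cKO and 579 bp in control, past the size for a higher value. Of these bases, 775 bp in cKO and 98 bp in control fell in or within 1 kb of Dgka, a lipid kinase gene. They included the near part of a cKO peak 7328 bp wide (128739641 to 128746968) that ran past the window edge. A control peak of 154 bp (128740141 to 128740294) crossed the same edge. The call thus depended on where the window ended. In the gene body alone the order turned, with 274 bp in cKO and 481 bp in control.

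Mlana, on chromosome 19 from 29697541 to 29708447, had little of any signal. ATAC coverage was 1038 and 228 bp in cKO, against 138 and 884 bp in control. The region called in all 4 lists lay 12.9 kb outside the gene, over the listed start of the noncoding gene Gm36126. A region inside Mlana (29703052 to 29703675) was called in the longest lists only, at 496 bp in cKO replicate 1 and 316 bp in control replicate 2. H3K27ac was listed at 0 in cKO and at 150 bp in control, under that same region. H3K27me3 was listed at 0 in both.

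The genes of the epithelium's service to photoreceptors, Rpe65 and Best1, differed in their open chromatin. Rpe65, on chromosome 3 from 159599075 to 159625307, had no ATAC peak in its window of 66.2 kb in any of the 4 lists, as did 12.9% of all protein-coding genes. H3K27ac was listed at 0 in both genotypes. A single H3K27me3 peak of 234 bp, from 159639182 to 159639415 and outside the gene, was called in control and none in cKO. None of the 8 genes was without a peak in all 8 lists, and 10.8% of all genes were.

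Best1 lies on chromosome 19 from 9985172 to 10001633, between Fth1, which encodes ferritin heavy chain, and Rab3il1. ATAC peaks covered 3596 and 2131 bp of its window in cKO, against 1593 and 3963 bp in control. Of its 6 ATAC regions, 5 were called in all 4 lists, and 3 of the 6 lay within 1 kb of a neighbouring gene. The widest was at the listed start of Fth1, with 1197 and 768 bp in cKO and 617 and 1251 bp in control. The start of Best1 itself was under no peak. The nearest region (10000272 to 10000798) ended 835 bp away and was inside the gene, with 503 and 147 bp in cKO and 115 and 527 bp in control. A region in the middle of the gene (9992889 to 9993503) was also acetylated, with 476 bp of it under H3K27ac in cKO and 471 bp in control.

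H3K27ac over the Best1 window was 3330 bp in cKO and 3644 bp in control, of which 1902 bp in cKO and 1938 bp in control lay at Fth1. H3K27me3 was 965 bp in cKO and 237 bp in control, past the size for a higher value, and all of it lay in or within 1 kb of Rab3il1. In the body of Best1 it was listed at 0 in both. The ATAC share of the Best1 window, neighbours included, was 6.37% and 3.77% in cKO and 2.82% and 7.02% in control. With neighbours left out, the covered bases were 1435 and 708 bp in cKO and 587 and 1685 bp in control.

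**Figure D4:**
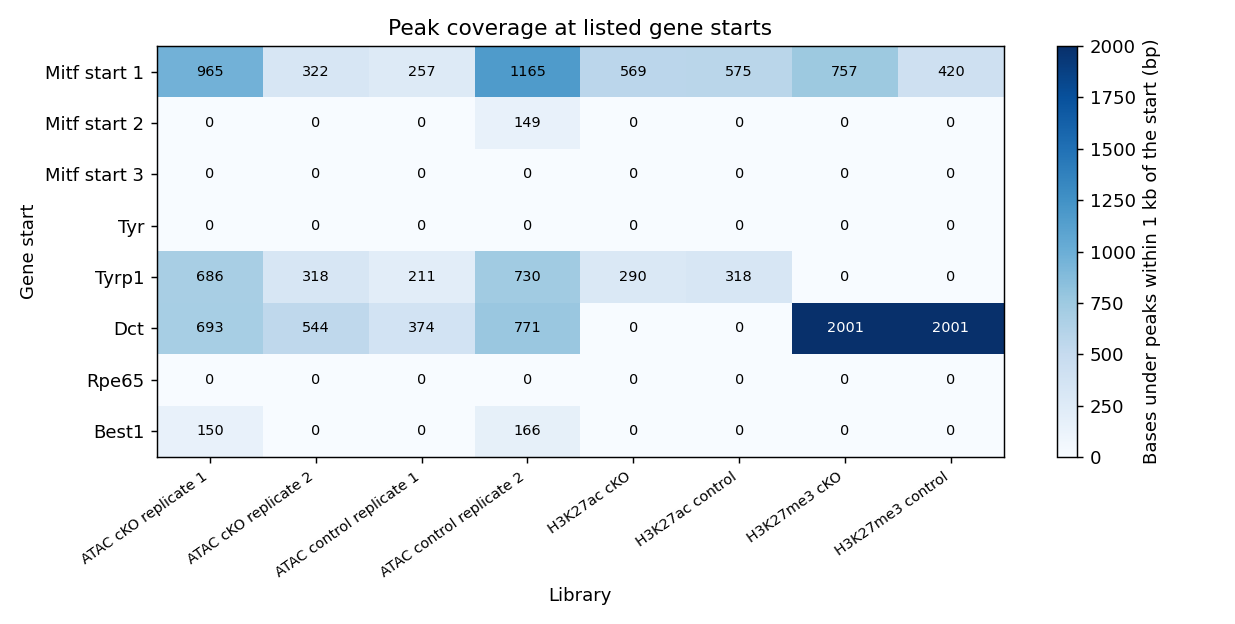
Covered bases within 1 kb of each listed start (rows) in each library (columns, cKO before control for each assay). Mitf start 1, Tyrp1 and Dct had ATAC coverage in all 4 lists, Dct was fully under H3K27me3 at 2001 bp, and the starts of Tyr and Rpe65 were at 0 throughout.

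By their starts, 3 of the 6 genes with a listed start had an ATAC peak within 1 kb in all 4 lists, beside 57.7% of all genes with a listed start. H3K27ac was within 1 kb of a start in both genotypes at Mitf and Tyrp1, beside 61.4% of all genes. H3K27me3 was there in both at Mitf and Dct, beside 23.5%. These same 2 genes had both an ATAC peak in all 4 lists and H3K27me3 in both genotypes within 1 kb of a start. Of all genes with a listed start, 13.0% did. At Dct all 2001 bp were under H3K27me3 in both genotypes. At the first Mitf start it covered 757 bp in cKO and 420 bp in control, and no peak of this mark lay on the start base. The ATAC region at that Mitf start had 373 bp under H3K27me3 in cKO and was listed at 0 in control. Tyr and Tyrp1 both hold the run GTCATGTGCT close to the start, and of these Tyrp1 had an ATAC peak within 1 kb in each list and Tyr in none.

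Between genotypes, the ATAC values of all 8 genes overlapped over the 4 libraries as deposited. In none were both cKO values above both control values, and in none were both below. Over the 18840 genes with any ATAC coverage the shares were 0.138% above and 0.0478% below. Differences of mean coverage ran from -854 bp at Mitf to 180 bp at Pmel, with two-sided exact permutation p of 0.667 at Tyr and Mlana and 1 at Mitf, Tyrp1, Dct, Pmel and Best1. The smallest p that the 6 splits of 2 against 2 libraries allow is 0.333, so this design cannot reach 0.05 and no gene has an unadjusted p under that level. The overlap depended on which lists were compared. Without control replicate 2, 7 genes were higher in cKO, and without control replicate 1, 5 were lower. Without cKO replicate 2, Tyr and Mlana were higher. At equal list lengths 2 genes no longer overlapped, Tyrp1 and Mlana. With cKO replicate 1 paired with control replicate 2, whose peak names carry the same number, and the remaining libraries paired, Tyr and Mlana were higher in cKO in both pairs, beside 14.4% of all genes. Of the 35 ATAC regions in the windows, 0 were called in both lists of a genotype while missing from the other genotype. Such a region lay in the window of 1.39% of all genes for cKO and 0.901% for control.

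Which ATAC regions were called moved with the length of the list. Of the 35 regions, 18 were called in all 4 lists, 2 in all but control replicate 1, 7 in cKO replicate 1 and control replicate 2 only, 1 in cKO replicate 2 and control replicate 2 only, 6 in control replicate 2 alone and 1 in cKO replicate 1 alone. Over the whole genome 28.2% of regions were called in all 4. Of the 18 here, 8 overlapped H3K27ac peaks in both genotypes and 2 overlapped H3K27me3 peaks in both (in Mitf and at the Dct start). A further 7 overlapped neither mark in either genotype. Of the 8 regions with H3K27ac, 2 were in the Pmel window, at the starts of Rab5b and Cdk2. Another 3 were in the Best1 window, including those at the starts of Fth1 and Rab3il1. The matching shares over all regions called in 4 lists were not computed.

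**Figure D5:**
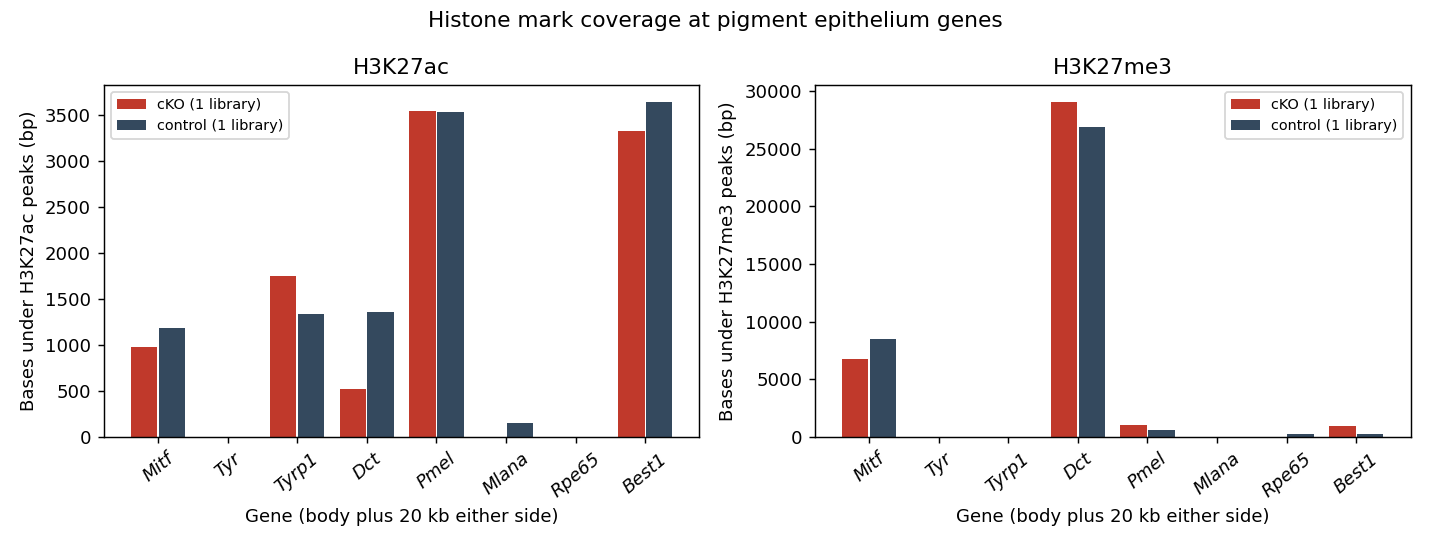
Bases under H3K27ac (left) and H3K27me3 (right) peaks in the window of each gene, cKO left of control, 1 library each. Dct stands out for H3K27me3 (29073 bp in cKO and 26913 bp in control) and for the lower H3K27ac value in cKO, and Tyr is at 0 in both panels.

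For H3K27ac, 4 of the 6 marked genes had fewer covered bases in cKO (Mitf, Dct, Mlana and Best1) and 2 had more (Tyrp1 and Pmel). Counting only peaks of at least 300 bp turned the order at Mitf, to 663 bp in cKO and 379 bp in control, and at Tyrp1, to 1093 bp in cKO and 1336 bp in control. Over all marked genes 65.2% had fewer, which is close to the share here. For H3K27me3, 3 of the 5 marked genes had more covered bases in cKO (Dct, Pmel and Best1), beside 43.5% of all, and 2 had fewer (Mitf and Rpe65), beside 56.2%. Both marks were present in both genotypes at 4 genes, Mitf, Dct, Pmel and Best1, beside 52.8% of all genes. Past the size used, Pmel and Best1 were higher and Rpe65 lower, beside 6.64% higher and 9.90% lower over the 14316 genes with this mark. Each of these calls rested on peaks in neighbouring genes or outside the gene body. In gene bodies alone, no gene of the group had more H3K27me3 in cKO.

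Of 15 other melanosome and pigment genes, 13 had an ATAC peak in all 4 lists, beside 77.3% of all genes, and none had non-overlapping genotypes. H3K27ac was present at 14 in cKO and 12 in control, and H3K27me3 at 13 in each. The median H3K27me3 share of the window was 9.30% in cKO and 9.03% in control, beside 0.815% in cKO and 0.387% in control for the 8 genes, and 1.15% in cKO and 1.23% in control for all genes. Gpr143, the gene of a melanosomal receptor, had 30694 bp under H3K27me3 in cKO and 31033 bp in control. One gene passed the size in H3K27ac: Trpm1, a cation channel gene of melanocytes and of retinal ON bipolar cells, had 2622 bp in cKO and 4418 bp in control. Slc24a5, a melanosomal ion exchanger gene, had no peak in any list but that of control replicate 2 (907 bp).

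Of 17 visual cycle and pigment epithelium genes, 15 had an ATAC peak in all 4 lists, beside the same 77.3% of all genes, with none called between genotypes. This list includes genes that the neural retina also uses. Rlbp1, which encodes a retinaldehyde carrier found in the epithelium and in Müller glia, had 12218 bp under H3K27ac in cKO and 11826 bp in control. Otx2, active in both tissues, had 11178 bp in cKO and 11020 bp in control. Lrat, the gene of the enzyme that makes the substrate of RPE65, was listed at 0 for H3K27ac in both and had 8873 bp under H3K27me3 in cKO and 9910 bp in control. By any size, 6 of the 17 had more H3K27ac bases in cKO and 10 had fewer. Past the size, Krt18 was higher in H3K27ac (926 bp in cKO and 507 bp in control), beside 2.16% of all marked genes. Krt8 went the other way without passing the size, at 2851 bp in cKO and 3720 bp in control. Rgr was higher in H3K27me3 (603 bp in cKO and 383 bp in control), beside 6.64% of all genes with that mark.

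Dissected retina may hold melanocytes and choroid vessels beside pigment epithelium, so their marker lists are given here. Of 7 melanocyte and neural crest markers, which include Mlana, H3K27ac lay at 5 in cKO and 6 in control, with 17.4 kb covered in all in cKO and 17.5 kb in control. Over all genes, 78.2% had H3K27ac in cKO and 78.0% in control. Most of the covered bases lay at Sox10 (7833 bp in cKO and 7348 bp in control), Erbb3 (4614 bp in cKO and 4161 bp in control) and Kit (2928 bp in cKO and 3003 bp in control). Ednrb had 1514 bp in cKO and 1856 bp in control. Neighbouring genes were left out for the 8 pigment epithelium genes only, so values of all the other lists may include peaks of neighbours. Mlana and Foxd3 were at 0 in cKO, and Foxd3 in control. One of the 7 markers passed the size, Pax3 at 469 bp in cKO and 1002 bp in control. Of 10 choroid vessel and mesenchyme markers, 9 had H3K27ac in each genotype, with 42.6 kb in cKO and 50.3 kb in control, and Twist1 at 0 in both. By any size, 6 of the 10 had fewer H3K27ac bases in cKO and 3 had more, beside 65.2% fewer over all marked genes. Kdr had the largest values, 14491 bp in cKO and 18146 bp in control. Past the size, Cdh5 was lower in cKO (997 bp against 1814 bp in control). Foxc1 (531 bp in cKO and 326 bp in control) and Col1a2 (1025 bp in cKO and 578 bp in control) were higher. Over all genes with H3K27ac, 4.12% were lower and 2.16% higher past the size. In H3K27me3, Kdr (481 bp in cKO and 819 bp in control) and Cdh5 (664 bp in cKO and 1032 bp in control) were lower. Over all genes with that mark, 9.90% were lower past the size. The summed H3K27ac of the 8 pigment epithelium genes was 10.1 kb in cKO and 11.2 kb in control. In ATAC the melanocyte list summed to 24.5 and 7.76 kb in cKO and 4.73 and 29.9 kb in control, and the choroid list to 34.3 and 14.3 kb in cKO and 7.69 and 40.1 kb in control. The part of other cell types in the values of the 8 genes was not tested. A list of 8 genes of muscle, liver, blood and pancreas had H3K27ac at 5 genes in cKO and 6 in control. The 8 pigment epithelium genes had the same counts. Medians were 504 bp in cKO and 643.5 bp in control, against 754.5 bp in cKO and 1259.5 bp in control for the pigment epithelium genes. As shares of the window the order turned, with 0.979% in cKO and 1.30% in control, against 0.524% in cKO and 1.09% in control. Of the muscle, liver, blood and pancreas genes, Actc1, Ins2 and Myf5 were lower in cKO past the size, beside 4.12% of all marked genes. Their values were 627, 0 and 410 bp in cKO and 1600, 265 and 707 bp in control. Among the 14 neural retina markers, none passed the size in H3K27ac. Rax and Fgf15 were higher in H3K27me3, beside 6.64% of all genes with that mark.

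The genes most like each member over the 8 lists were found by Euclidean distance of log2(covered bases + 100). For Rpe65 they were the olfactory receptor genes Olfr1424 and Olfr1425, tied at 0.13. For Dct they were Nkx1-2, a homeobox gene, at 0.79, Slc15a5 at 0.88 and Pou4f1, a transcription factor gene of retinal ganglion cells, at 0.95. For Tyrp1 the nearest were Ucn2 at 0.31 and Tmem17 at 0.32, and for Pmel Ctns at 0.30. For Tyr it was Gm6592 at 0.51, for Mlana Tcp10b at 0.18, for Mitf Tmem156 at 0.67 and for Best1 Ift46 at 0.54.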

How the data were processed

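The members and gene lists were chosen with earlier results of these data known. The submitters' processing notes name Bowtie2, deepTools, MACS2 and mm10 and no versions. Peak threshold, use of input, duplicate removal and any shift of reads for the transposase were not given in the sources used here. Narrow calling can break wide H3K27me3 stretches into pieces. The deposited lists hold positions in bp, and their score column is 0 throughout, so no height or depth could be used. The 2 input samples were not analysed here.

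Only chromosomes 1 to 19 and X were used. Covered bases were summed per gene window with Python 3.11.15, numpy 2.4.6, pandas 2.3.3 and scipy 1.17.1, and checked on simulated peaks. ATAC lists were merged at 1 bp overlap. Histone differences count as past the size at 1.5-fold and 200 bp. Gene bounds are from a RefSeq table of GRCm38.p6 without exons, so exons, introns and UTRs were not assigned. Named are all 8 members, neighbouring genes in their windows, up to 3 most alike genes, and list genes past the size; other list genes were picked after their values were seen. Same-numbered ATAC libraries had deviations from their group means that correlated at -0.743 over 18840 genes, so the numbers were not taken as pairs. Per the file contents, the peak names of cKO replicate 1 and control replicate 2 carry the same number. Alternatives were other windows, wider peaks, equal list lengths, division by list total, merging within 500 bp, and leaving out each ATAC library.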

Additional observations from a re-analysis of the deposited data

How the results depend on the processing

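Under gene bodies alone, bodies plus 5 kb, neighbours removed, peaks of at least 300 bp and division by list total, no gene had non-overlapping ATAC values between genotypes. At equal list lengths (the widest peaks of each list, as many as the shortest list of that assay holds) 2 did, Tyrp1 and Mlana, with 1 of them higher in cKO. Leaving out 1 ATAC library gave 0 to 7 such genes and 0 to 6 genotype-specific regions. Without control replicate 2, 7 genes and 2 regions were called, the 7 genes all higher in cKO. Without control replicate 1, 5 genes (all lower in cKO) and 6 regions were called. Without cKO replicate 2, 2 genes and 1 region were called, and without cKO replicate 1, 0 of each. Shares over all genes were not computed for equal list lengths or with a library left out, so these counts have no background. The count of such regions was 0 with gene bodies, with 5 kb, with neighbours removed, with peaks of at least 300 bp, at equal list lengths and with peaks merged within 500 bp. It was not recomputed under division by list total or the crossed pairing. With the labelled numbers as a replicate block, a gene counts when both pairs differ one way, and 0 genes and 0 regions did. With the crossed pairing, added after seeing the data, 2 genes did, Tyr and Mlana, both higher in cKO, beside 14.4% of all genes higher in that way. Genes with more H3K27me3 in cKO numbered 0 with gene bodies alone, 0 with bodies plus 5 kb and 1 with neighbours removed, against 3 as reported. The Pmel difference in H3K27me3 turned to -207 bp with gene bodies, with 5 kb and with neighbours removed. Removal of neighbours leaves out Dgka by construction, and the shorter windows end before the H3K27me3 peaks that lie in it. With peaks of at least 300 bp the H3K27ac difference was 284 bp at Mitf and -243 bp at Tyrp1, against -199 bp and 415 bp as reported. The Dct difference in H3K27me3 was -849 bp with gene bodies and -434 bp with 5 kb, against 2160 bp. Counts of genes with either mark, and of genes with fewer H3K27ac bases in cKO, stayed within 1.5 times of those reported under each alternative run. Unknown depth limits every ATAC absence in the shortest list.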
